A study of Mus musculus with 2 samples.

Results

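The genes described here form the thyroid hormone axis of the brain: the hormone carrier Ttr, the transporter Slco1c1, the deiodinase Dio2, the nuclear receptors Thra and Thrb, the hormone-responsive genes Klf9, Hr and Thrsp, and the hormone-binding protein gene Crym. They are 9 of 53717 genes listed in the deposited tables, each matched to 1 row by symbol, and they were chosen by their measured UMI levels across cell classes and libraries, so these levels are a description and carry no test. RNA was counted in single cells of hippocampus from 5xFAD mice, a strain that carries mutant human amyloid genes driven by the neuronal Thy1 promoter. Both groups had received an AAV9 vector with the astrocyte-directed GFAP promoter. In the NeuroD1 group (AAV9-GFAP::NeuroD1-P2A-GFP) the vector encoded the proneural factor NeuroD1 and GFP, and in the GFP group (AAV9-GFAP::GFP) it encoded GFP alone. The recorded time is 6 months in both groups, tissue was taken 3 weeks after injection, and 3 mice per group are stated. Each group was deposited as 1 library, with no map from cells to mice. The sample titles read AD_+ND1 and Ctrl_+GFP, although the strain field gives 5xFAD for both. The library was the unit of comparison, so no test between groups was possible, and every ratio below describes 2 libraries.

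Thyroid hormone reaches the brain mainly as the prohormone thyroxine (T4). Transthyretin, made in the brain by choroid plexus epithelium, carries T4 in cerebrospinal fluid, and the organic anion transporter encoded by Slco1c1 moves T4 across brain endothelium and into astrocytes. Astrocytes convert T4 to the active hormone T3 with type 2 deiodinase, encoded by Dio2. T3 then acts in neurons and glia through the receptors Thra and Thrb, which bind DNA as partners of retinoid X receptors and exchange corepressors for coactivators when hormone is bound. Klf9 and Hr are direct targets in brain, Thrsp is a hormone-responsive gene of fatty acid synthesis, and Crym encodes a cytosolic protein that binds T3.

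There were 13402 barcodes with 51236521 UMIs in the NeuroD1 library, and 11739 with 17504950 in the GFP library. After filtering and removal of doublets, 12786 and 11079 cells were left, at a median depth of 2556 and 1168 UMIs, and 99 barcodes occurred in both libraries. Kept cells of both libraries held 0 UMIs of the vector feature ND1, and 627 (NeuroD1 library) and 25290 (GFP library) of the vector feature GFP. Xist was at 0.0413 and 103 CPM (UMIs per 1000000 UMIs of the sum) and the Y-linked Ddx3y at 69.5 and 0.0618 CPM, so the libraries differed in sex-linked RNA as well as in vector. Haemoglobin genes made up 0.461% and 0.00108% of UMIs, mitochondrial transcripts 3.07% and 4.31%, and transcripts of ribosomal proteins 2.27% and 5.31%. The contribution of sex, dissociation and depth to the ratios was not tested, and none of them can be told apart from the vector with 1 library per group. Cells fell into 30 clusters, named by their markers as "X-like" classes with 3 clusters left unnamed. Of these classes, 11 had at least 50 cells in both libraries and 9 had at least 100 and were compared. Neuron-like cells, although the tissue was hippocampus, were 1.36% and 1.79% of kept cells.

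Promoters are shown for Dio2, whose RNA was almost confined to astrocyte-like cells, and Thrsp, the member with the highest NeuroD1 over GFP ratio in astrocyte-like cells after Ttr. Each line gives the 250 bases before the gene start from RefSeq, assembly GRCm38.p6, minus strand, read 5′ to 3′. Dio2 lies on chromosome 12 (chr12:90739039-90739288) and Thrsp on chromosome 7 (chr7:97417551-97417800). Capitals mark, in Dio2, the cyclic AMP response element TGACGTCA, which begins 95 bases before the start, and the TATA box letters TATAAA at 30 bases, and in Thrsp the CCAAT box letters on either strand at 79 (ATTGG) and 52 bases (CCAAT).
Dio2: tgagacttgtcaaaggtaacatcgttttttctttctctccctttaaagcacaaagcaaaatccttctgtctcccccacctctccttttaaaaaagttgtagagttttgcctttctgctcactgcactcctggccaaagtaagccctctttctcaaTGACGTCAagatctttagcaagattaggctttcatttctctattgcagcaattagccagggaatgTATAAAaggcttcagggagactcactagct
Thrsp: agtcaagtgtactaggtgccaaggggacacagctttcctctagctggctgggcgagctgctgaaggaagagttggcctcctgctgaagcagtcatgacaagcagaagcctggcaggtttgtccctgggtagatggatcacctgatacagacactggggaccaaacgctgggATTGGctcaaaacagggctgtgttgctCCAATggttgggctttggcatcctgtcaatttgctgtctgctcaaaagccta
Promoters were matched for 5 of the 9 members (Dio2, Klf9, Slco1c1, Thrb and Thrsp). Searched on both strands of the same 250-base window, TGACGTCA stood in 1.55% of 32851 promoters and, among these members, in Dio2. The letters TATAAA stood in 12.4% of promoters, including Dio2 and Thrb, and ATTGG in 33.8%, including Klf9, Slco1c1 and Thrsp. The hexamer AGGTCA, which thyroid hormone receptors recognise, stood in 14% of promoters and among the members in Thrb. Its direct repeat spaced by 4 bases, AGGTCANNNNAGGTCA, which contains the hexamer, stood in 0.0152% of promoters and in none of these members. These are matches of letters within 1 window and say nothing about binding.

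The members differed in which cell classes held their RNA. Among the 11 classes with at least 50 cells in both libraries, the same class ranked highest in both for 7 of the 9 members. Ttr was highest in choroid plexus epithelium-like cells, Slco1c1 in endothelial cell-like cells, Dio2 and Thrsp in astrocyte-like cells, Thra in neuron-like cells and Klf9 in vascular smooth muscle-like cells. Crym, with 106 UMIs in all kept cells, was highest in neuron-like cells. Hr and Thrb were the exceptions. Oligodendrocyte-like cells held most UMIs of Hr in both libraries, but 4 UMIs put vascular smooth muscle-like cells first in the GFP library at 14.01 CPM. For Thrb, astrocyte-like cells led in the NeuroD1 library at 18.6 CPM, and neuron-like cells led in the GFP library at 33.9 CPM on 10 UMIs. Smaller classes were not ranked. Among them fibroblast-like cells, with 119 and 28 cells and 326321 and 43838 UMIs, held 112 and 16 Klf9 UMIs. They held 2 and 4 Hr UMIs. Levels are CPM of the summed cells of a class, and the counts come without transcript lengths, so levels are compared between classes for 1 gene and not between genes. Intervals in parentheses are 95% and cover counting error only.

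**Figure D1:**
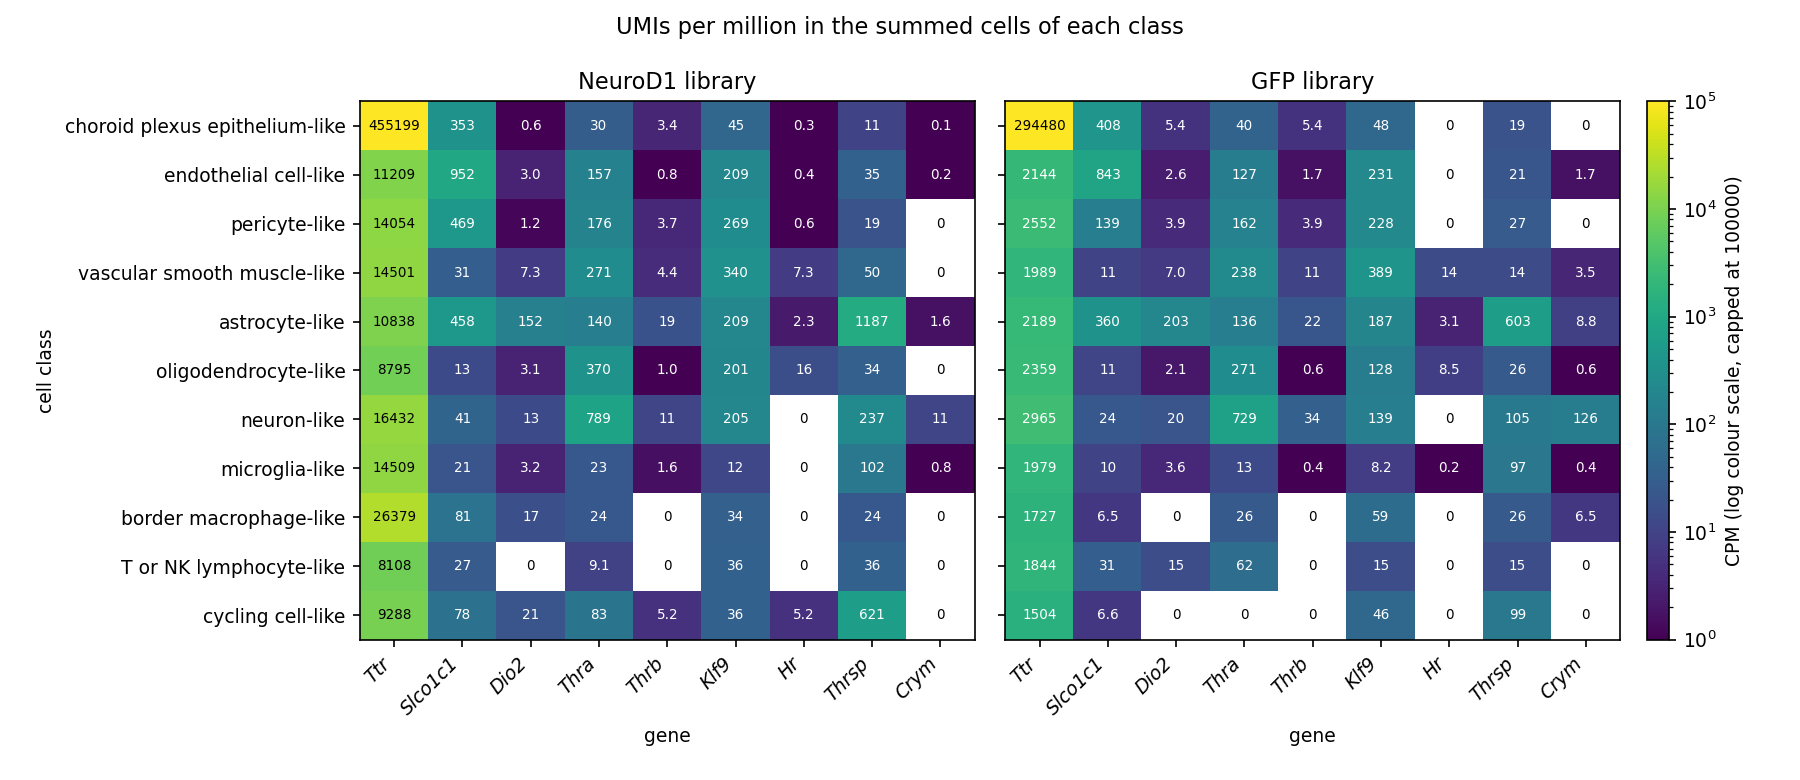
Heat map of the level of each member (columns) in the 11 cell classes with at least 50 cells in both libraries (rows), NeuroD1 library on the left and GFP library on the right. Numbers are CPM of the summed cells, colour is on a log scale, and white is 0 UMIs; Ttr is at 1504 CPM or more in every class, and the other members differ in which classes are high, with Klf9 and Thra spread over most.

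Ttr encodes transthyretin, the T4 carrier of cerebrospinal fluid, and choroid plexus epithelium-like cells held 93.6% of its UMIs in the NeuroD1 library against 90.3% in the GFP library. Its level in them was 455199 CPM in the 887 cells of the NeuroD1 library and 294480 CPM in the 256 cells of the GFP library, a ratio of 1.55 (1.54 to 1.55). In the median cell of this class Ttr was 45.1% and 29.4% of all UMIs. Because Ttr takes so large a share, it lowers the CPM of every other gene in the class: when Ttr, haemoglobin, mitochondrial and ribosomal protein genes were left out of the total, the Ttr ratio was 1.94. The median depth of these cells also differed, with 5423 and 1352 UMIs.

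Outside this class Ttr is given as free RNA and not as expression by the cells, a reading that was set beforehand and not tested. It was found there at a lower level, in nearly all cells of the NeuroD1 library and in most cells of the GFP library. Over the other 10 classes, cells with at least 1 Ttr UMI made up 99.7% to 100% of each class in the NeuroD1 library against 70.8% to 92.2% in the GFP library. Class levels ran from 8108 CPM in T or NK lymphocyte-like cells to 26379 CPM in border macrophage-like cells in the NeuroD1 library. They ran from 1504 CPM in cycling cell-like cells to 2965 CPM in neuron-like cells in the GFP library. None of these 10 classes in the GFP library reached the lowest of them in the NeuroD1 library. Some smaller classes lay outside these ranges. Ependymal cell-like cells had 76467 CPM in 36 cells of the NeuroD1 library. Fibroblast-like cells had 17496 CPM in 28 cells of the GFP library, where 1 cell held 707 of the 767 Ttr UMIs. The typical cell varied much less between the 10 classes. In the NeuroD1 library the median Ttr share per cell was 0.454% (oligodendrocyte-like) to 0.669% (pericyte-like). In the GFP library it was 0.116% (vascular smooth muscle-like) to 0.169% (T or NK lymphocyte-like). Summed over the 8 compared classes other than choroid plexus, Ttr was at 10978 and 2157 CPM, a ratio of 5.09 (5.03 to 5.15), and single classes gave ratios from 3.73 in oligodendrocyte-like to 15.3 in border macrophage-like cells. Within clusters the ratio varied more. Oligodendrocyte-like cells came mostly from the cluster led by Mobp and Mbp in the NeuroD1 library (2791 and 226 cells) and from the cluster led by Npsr1 and Gstp1 in the GFP library (364 and 2052 cells). Ttr was at 8788 and 5352 CPM in the first, a ratio of 1.64 (1.58 to 1.70), and at 8897 and 1779 CPM in the second, a ratio of 5.00 (4.81 to 5.197). In endothelial cell-like cells the ratio was 3.17 (2.89 to 3.49) in the cluster led by Sox18 and Cxcl12 and 12.7 (11.98 to 13.5) in the cluster led by Foxf1 and Apold1.

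**Figure D2:**
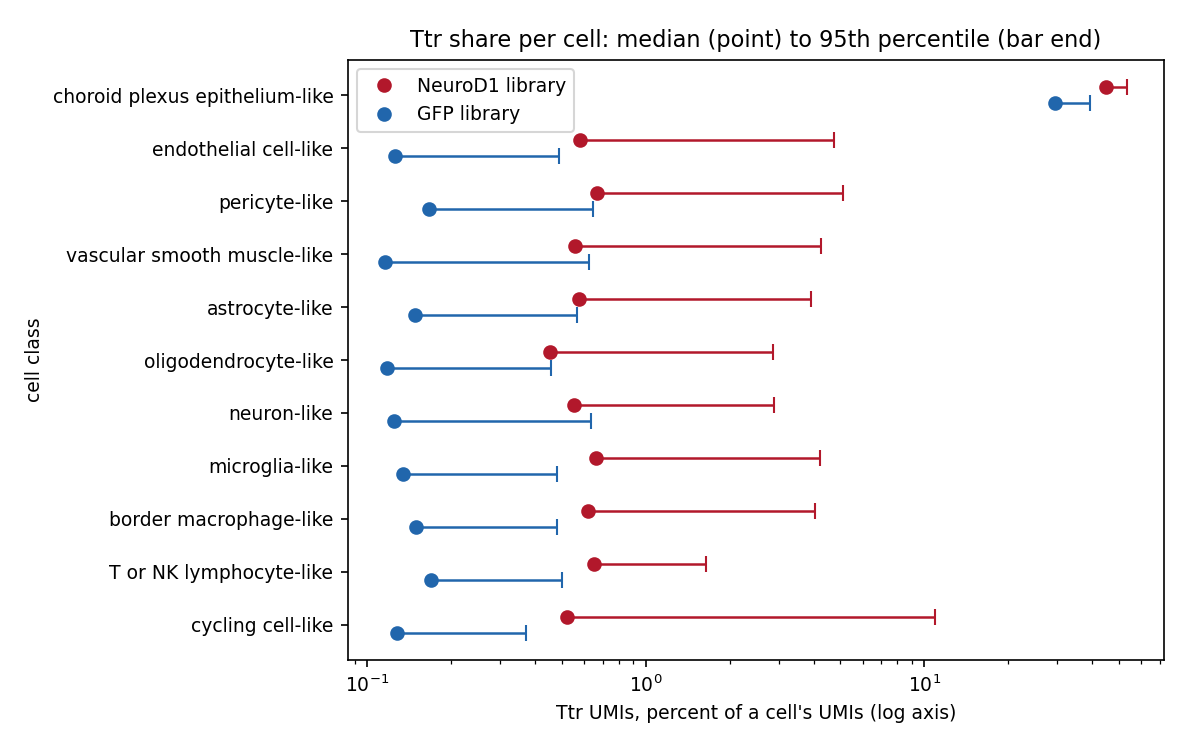
Ttr UMIs as a percent of all UMIs of a cell (log axis) in 11 classes (rows), for the NeuroD1 library (red) and the GFP library (blue); points are the median cell and bars end at the 95th percentile. Choroid plexus epithelium-like cells sit at 45.1% and 29.4%, and in every other class the red median lies between 0.454% and 0.669% and the blue median between 0.116% and 0.169%.

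A small number of cells carried much of the Ttr outside choroid plexus. Over the same 10 classes, cells with more than 5% of their UMIs from Ttr numbered 433 of 11085 in the NeuroD1 library against 27 of 10033 in the GFP library. Such cells held 43.3% and 6.97% of the Ttr in astrocyte-like cells, 48.0% and 10.4% in microglia-like cells, and 33.8% and 32.2% in oligodendrocyte-like cells. In the 118 border macrophage-like cells of the NeuroD1 library, 5 such cells held 75.8% of the class's Ttr and 1 cell held 4807 Ttr UMIs. Without such cells, class levels were 6005 to 7979 CPM in the NeuroD1 library against 1504 to 2163 CPM in the GFP library. The ranges thus stayed apart, but the gap was narrower without these cells in each of the 10 classes except oligodendrocyte-like cells. Microglia-like cells went from 14509 and 1979 CPM to 7979 and 1777 CPM, and astrocyte-like cells from 10838 and 2189 CPM to 6391 and 2040 CPM. Border macrophage-like cells went from 26379 and 1727 CPM to 6900 and 1727 CPM. Oligodendrocyte-like cells went from 8795 and 2359 CPM to 6005 and 1615 CPM, with a like ratio before and after.

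Other choroid plexus genes accompanied Ttr in these cells. Per 1000 Ttr UMIs, choroid plexus epithelium-like cells held 5.79 (5.73 to 5.86) UMIs of Folr1, Kcne2, Clic6 and Calml4 together in the NeuroD1 library against 10.7 (10.4 to 11.1) in the GFP library. Astrocyte-like cells held 5.36 (4.95 to 5.79) and 6.81 (4.94 to 9.16), and microglia-like cells 4.87 (4.18 to 5.64) and 8.92 (7.22 to 10.9). Across the 8 compared classes outside choroid plexus, the values ran from 4.87 to 8.16 in the NeuroD1 library against 0 to 8.97 in the GFP library, where border macrophage-like cells had 0 such UMIs beside 265 of Ttr. The ratio outside was therefore near that of choroid plexus cells in the NeuroD1 library and at or below it in the GFP library. Enpp2, also a choroid plexus marker, was left out of this sum because oligodendrocyte-like cells held it at 3601 and 4619 CPM, and with it the ratio in oligodendrocyte-like cells was 414 and 1967 per 1000.

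Slco1c1, the T4 transporter of the blood-brain barrier, was highest in endothelial cell-like cells, at 952 (925 to 979) CPM in the NeuroD1 library against 843 (791 to 897) CPM in the GFP library. The ratio was 1.13 (1.05 to 1.21), and it was 0.998 with median-of-ratios scaling. Astrocyte-like cells held 458 and 360 CPM, a ratio of 1.27 (1.19 to 1.36) that differed by cluster. It was 1.61 (1.27 to 2.07) in the cluster led by Hes5 and Gjb6. In the clusters led by GFP and Id4 and by Slc1a4 and Serpina3n it was 1.06 (0.913 to 1.23) and 1.17 (0.846 to 1.58). Choroid plexus epithelium-like cells held 353 and 408 CPM, a ratio of 0.866 (0.786 to 0.956). This became 1.09 when Ttr and the other abundant genes were left out of the total. In the GFP library the choroid plexus and astrocyte intervals overlapped (371 to 447 and 338 to 382 CPM). Slco1c1 was detected in 79.5% and 56.4% of endothelial cell-like cells, and in 36.7% and 33.7% when every cell was thinned to 500 UMIs. Oligodendrocyte-like cells, which are not known for this transporter, had 3.77% and 1.36% of cells with a UMI, at median depths of 2939 and 1277 UMIs against 2129 and 1009 in endothelial cell-like cells.

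Within the endothelial class Slco1c1 varied by cluster. It was at 1043 and 903 CPM in the cluster led by Sox18 and Cxcl12, which held most cells of the NeuroD1 library, and at 972 and 849 CPM in the cluster led by Foxf1 and Apold1, which held most cells of the GFP library. The ratios within these clusters were 1.15 (0.958 to 1.40) and 1.15 (0.945 to 1.38), so neither interval left out 1. The cluster led by Lrg1 and Ackr1, with the venular markers Ackr1 and Vwf among its leading genes, had 561 CPM in 173 cells of the NeuroD1 library. An unnamed cluster led by Gkn3 and Cytl1, in which the endothelial markers summed to 26879 and 20236 CPM, had 969 and 574 CPM, a ratio of 1.69 (1.31 to 2.20).

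Pericyte-like cells gave the largest Slco1c1 ratio among classes with at least 30 UMIs in each library, 3.37 (2.41 to 4.84), from 469 and 139 CPM. Nearly all of these UMIs lay in 1 cluster, led by Rgs5 and Gkn3. It had 186 of the 748 pericyte-like cells in the NeuroD1 library against 41 of the 308 in the GFP library. Slco1c1 was at 783 CPM in it in the NeuroD1 library. No level or ratio is given for this cluster in the GFP library, which had fewer than 50 cells there. In it 12 endothelial markers summed to 19311 and 16261 CPM, with Cldn5 at 1823 and 2194 CPM. In the other pericyte-like cluster, led by Vtn and Kcnj8, the endothelial markers summed to 1302 and 962 CPM, and Slco1c1 was at 24.1 and 17.1 CPM, a ratio of 1.41 (0.403 to 7.54). The parts that endothelial RNA and the unequal cluster shares have in the pericyte ratio were not tested beyond this split.

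Dio2, the enzyme that makes T3 from T4 inside astrocytes, had 1666 of its 1936 UMIs in the NeuroD1 library (86.1%) in astrocyte-like cells, and 598 of its 666 in the GFP library (89.8%). Its level was 152 (145 to 160) and 203 (187 to 220) CPM, and no other class with at least 50 cells in both libraries exceeded 21 CPM. Neuron-like cells followed in the GFP library with 20.4 CPM on 6 UMIs, while endothelial cell-like, oligodendrocyte-like and microglia-like cells lay between 2.12 and 3.64 CPM. Dio2 was detected in 29.5% and 21.3% of astrocyte-like cells, and in 6.82% and 9.30% after thinning, against 0.951% and 0.307% of oligodendrocyte-like cells without thinning. The order of the libraries in the share of cells thus turned with depth, and the thinned shares and the CPM were both lower in the NeuroD1 library.

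The astrocyte-like Dio2 ratio was 0.752 (0.684 to 0.827), and it was not the same within clusters. The cluster led by Hes5 and Gjb6 held 2459 astrocyte-like cells from the NeuroD1 library and 113 from the GFP library, the cluster led by GFP and Id4 1008 and 1192, and the cluster led by Slc1a4 and Serpina3n 53 and 857. Dio2 was at 150 and 127 CPM in the first of these, a ratio of 1.18 (0.824 to 1.76). In the cluster led by GFP and Id4 it was at 160 and 188 CPM, a ratio of 0.847 (0.687 to 1.04). In the cluster led by Slc1a4 and Serpina3n it was at 301 and 227 CPM, a ratio of 1.33 (0.875 to 1.94). No cluster's interval left out 1, and the cluster with the highest Dio2 in both libraries held most of its cells in the GFP library. Within the GFP library, astrocyte-like cells with vector GFP RNA (1359 cells, median 1224 UMIs) had 225 CPM of Dio2 and those without (803 cells, median 1016 UMIs) 165 CPM, a ratio of 1.36 (1.14 to 1.64) that was 1.31 (0.981 to 1.76) after thinning. Slco1c1 was at 344 and 397 CPM in the same cells, and Thrsp at 639 and 547 CPM.

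**Figure D3:**
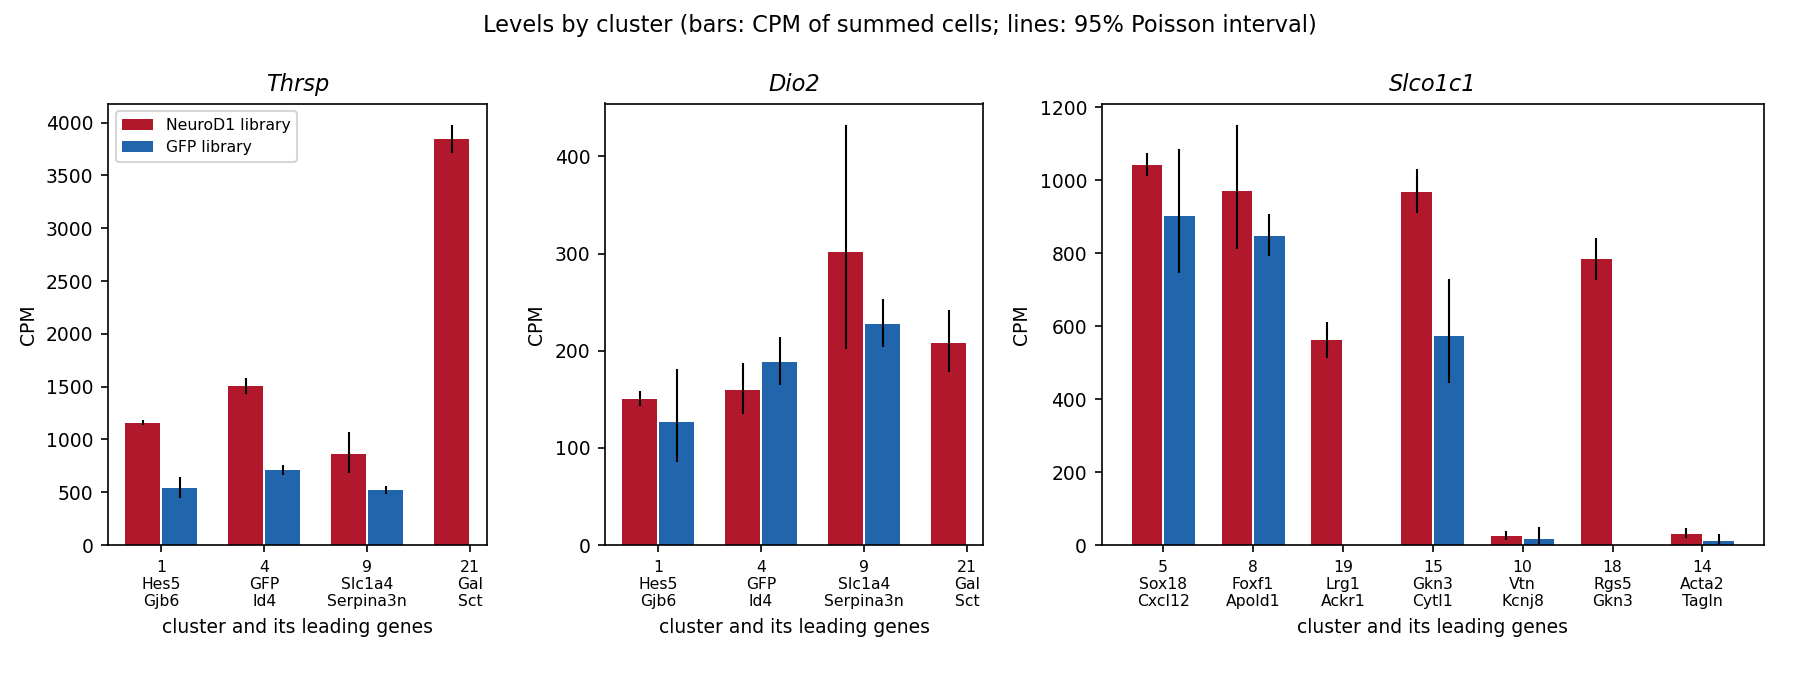
Levels of Thrsp and Dio2 (left and middle) in the 3 astrocyte-like clusters and in cluster 21, and of Slco1c1 (right) in vascular clusters, with bars for CPM of the summed cells (red NeuroD1 library, blue GFP library) and lines for the 95% interval. A bar is missing where a library had fewer than 50 cells in the cluster; Thrsp is higher in the NeuroD1 library in all 3 astrocyte-like clusters, whereas the Dio2 intervals of the libraries overlap in each.

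Thra, which encodes the main thyroid hormone receptor of brain together with a variant that does not bind hormone, was highest in neuron-like cells at 789 (709.5 to 874) and 729 (635 to 834) CPM, a ratio of 1.08 (0.911 to 1.29). Immature neuron-like cells had 539 CPM in 101 cells of the NeuroD1 library, and the 30 such cells of the GFP library held 7 UMIs. Oligodendrocyte-like cells followed with 370 and 271 CPM, a ratio of 1.36 (1.27 to 1.47), and both oligodendrocyte-like clusters gave a like ratio, 1.36 (1.15 to 1.61) in the cluster led by Mobp and Mbp and 1.41 (1.22 to 1.64) in the cluster led by Npsr1 and Gstp1. Vascular smooth muscle-like cells had 271 and 238 CPM, pericyte-like cells 176 and 162 CPM, endothelial cell-like cells 157 and 127 CPM and astrocyte-like cells 140 and 136 CPM. These neighbours in the order overlapped in their intervals in the GFP library from pericyte-like to astrocyte-like cells. Microglia-like cells had 23.4 and 13.1 CPM, the lowest of the 9 compared classes in both libraries, with border macrophage-like cells next at 23.5 and 26.1 CPM. Their Thra ratio was 1.79 (1.24 to 2.56) on 59 and 72 UMIs, and it was 1.41 with median-of-ratios scaling.

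Thrb, the second receptor gene, had 307 and 96 UMIs in all, of which 66.1% and 67.7% were in astrocyte-like cells. Its level there was 18.6 (16.1 to 21.3) and 22.0 (17.0 to 28.1) CPM, a ratio of 0.843 (0.634 to 1.13). Neuron-like cells had 10.9 CPM on 5 UMIs and 33.9 CPM on 10 UMIs, intervals of 3.54 to 25.4 and 16.3 to 62.4 that overlap. Choroid plexus epithelium-like cells had 3.41 and 5.39 CPM on 44 and 6 UMIs. The interval of the Thrb ratio held 1 in each of the 8 compared classes where both libraries had UMIs of it.

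Klf9, a zinc finger transcription factor gene induced directly by T3 and also by glucocorticoid, was spread widely. Vascular smooth muscle-like cells had 340 and 389 CPM, pericyte-like cells 269 and 228, endothelial cell-like cells 209 and 231, and astrocyte-like cells 209 and 187 CPM. Microglia-like cells had 11.5 and 8.19 CPM and choroid plexus epithelium-like cells 44.7 and 47.6 CPM, so the same classes were low in Klf9 and in Thra. The clearest difference between the libraries was in oligodendrocyte-like cells, with 201 (192 to 210) and 128 (116 to 140) CPM, a ratio of 1.58 (1.42 to 1.75). It was 1.76 (1.36 to 2.30) within the cluster led by Mobp and Mbp and 1.34 (1.07 to 1.66) within the cluster led by Npsr1 and Gstp1. Thinning to 500 UMIs per cell gave 1.38, under the 1.5-fold limit. In neuron-like cells Klf9 was at 205 and 139 CPM, a ratio of 1.47 (1.01 to 2.18), and at 228 and 59.2 CPM within the cluster led by Reln and Ndnf, where the GFP library had 5 UMIs.

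Hr, a corepressor gene that T3 induces in developing brain, was scarce, with 213 and 47 UMIs in all. Oligodendrocyte-like cells held 77.0% and 59.6% of them, at 15.6 (13.3 to 18.2) and 8.47 (5.63 to 12.2) CPM, a ratio of 1.84 (1.23 to 2.86). Thinning gave 1.39. Vascular smooth muscle-like cells had 7.29 and 14.01 CPM on 5 and 4 UMIs, and astrocyte-like cells 2.29 and 3.05 CPM. In neuron-like cells no Hr UMI was found in 174 and 198 cells, which at 3 counts allows up to 6.54 and 10.2 CPM; the exact interval used for the other levels ends at 8.04 and 12.5 CPM. Thra, Klf9 and Hr thus all had ratios above 1 in oligodendrocyte-like cells. That of Thra was under 1.5-fold, and those of Klf9 and Hr were under it after thinning.

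Thrsp, which encodes a nuclear protein that promotes fatty acid synthesis and was named for its response to thyroid hormone, had 74.2% and 67.8% of its UMIs in astrocyte-like cells. Its level there was 1187 (1167 to 1208) CPM in the NeuroD1 library against 603 (575 to 631) CPM in the GFP library, a ratio of 1.97 (1.87 to 2.07). It was detected in 63.5% and 38.9% of astrocyte-like cells, and in 32.9% and 21.9% after thinning, against 9.16% and 3.51% of oligodendrocyte-like cells (1.71% and 1.23% after thinning). The highest cell held 111 UMIs in the NeuroD1 library against 21 in the GFP library. The direction was the same in all 3 astrocyte-like clusters. In the cluster led by GFP and Id4, where the libraries had like median depths of 774 and 866 UMIs, Thrsp was at 1503 and 708 CPM, a ratio of 2.12 (1.95 to 2.31). In the cluster led by Hes5 and Gjb6 the ratio was 2.16 (1.81 to 2.59), and in the cluster led by Slc1a4 and Serpina3n 1.65 (1.30 to 2.07). Over all 11 alternatives the astrocyte-like ratio stayed between 1.795 with thinning and 2.31 with classes from marker scores. The 14 astrocyte markers, which were also the list that named these clusters, were together at 57202 and 57085 CPM in these cells. The cause of the Thrsp ratio was not tested.

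The highest Thrsp level of any cluster, 3845 CPM, was in the 144 cells of cluster 21, all from the NeuroD1 library. This cluster was led by Gal and Sct, was left unnamed because only 2 astrocyte markers were among its 100 leading genes, and held the 14 astrocyte markers at 50274 CPM in all and Dio2 at 208 CPM. Outside astrocyte-like cells Thrsp was lower: microglia-like cells had 102 and 96.8 CPM, oligodendrocyte-like cells 33.8 and 26.3 CPM, and endothelial cell-like cells 34.9 and 21.4 CPM. The 14 astrocyte markers summed to 1250 and 900.1 CPM in microglia-like cells and to 979 and 1016 CPM in oligodendrocyte-like cells, so Thrsp in microglia-like cells was higher per astrocyte marker UMI than in oligodendrocyte-like cells. Cycling cell-like cells had 621 and 99.0 CPM (120 and 15 UMIs), of which 51 UMIs were in 1 cell, and astrocyte markers there summed to 6004 and 877 CPM.

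In neuron-like cells Thrsp was at 237 and 105 CPM, a ratio of 2.26 (1.503 to 3.48). The cluster led by Reln and Ndnf held 167 neuron-like cells from the NeuroD1 library and 73 from the GFP library, and the cluster led by Thy1 and Slc17a7 held 7 and 125. Within the Reln cluster Thrsp was at 268 and 249 CPM, a ratio of 1.08 (0.671 to 1.81), and in the Thy1 cluster of the GFP library it was at 47.6 CPM. The neuron-like Thrsp ratio was thus not seen within the cluster that both libraries share.

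Crym, the gene of the cytosolic T3-binding protein mu-crystallin, had 32 UMIs in the NeuroD1 library against 74 in the GFP library. All of its UMIs in neuron-like cells were in the cluster led by Thy1 and Slc17a7, which expressed markers of glutamatergic neurons: 5 UMIs in 7 cells of the NeuroD1 library (96.3 CPM) and 37 UMIs in 125 cells of the GFP library (176 CPM). The class ratio of 0.0868 (0.0266 to 0.221), from 10.9 and 126 CPM, stood beside these unequal numbers of cells, and their part in it was not tested. In astrocyte-like cells Crym was at 1.65 and 8.81 CPM on 18 and 26 UMIs, a ratio of 0.187 (0.0965 to 0.354). The cluster led by Slc1a4 and Serpina3n held 19 of the 26 UMIs at 13 CPM in the GFP library, and 1 UMI at 10.4 CPM in its 53 cells of the NeuroD1 library. The ratio within it was 0.799 (0.0192 to 5.03). The cluster led by GFP and Id4 held 0 and 7 UMIs, and that led by Hes5 and Gjb6 17 and 0. A single astrocyte-like cell held 7 UMIs.

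Library ratios of all members were read against all genes. A member was counted in a class where both libraries together held at least 20 UMIs, and called higher or lower at 1.5-fold, which gave 51 counted pairs of 81, of which 21 were higher and 4 lower in the NeuroD1 library. Ttr made up 9 of the 21, so every class count below includes it, although outside choroid plexus it is given as free RNA. In astrocyte-like cells 2 of 9 counted members were higher (Ttr and Thrsp) and 1 lower (Crym), where 10.1% of 13162 genes were higher and 25% lower. In oligodendrocyte-like cells 3 of 7 were higher (Ttr, Klf9 and Hr) and 0 lower, where 12.5% of genes were higher and 15.2% lower. In microglia-like cells 3 of 6 were higher (Ttr, Slco1c1 and Thra) and 0 lower, against 36.6% and 16.3% of genes. The microglia-like Slco1c1 ratio was 1.99 (1.34 to 2.95) on 52 and 57 UMIs, and 1.23 when the UMIs that choroid plexus RNA would bring along with Ttr were taken off. By that measure 54.6% and 26.4% of the Slco1c1 UMIs in this class went with Ttr. The Thra ratio kept 1.5-fold in 7 of 11 alternatives and was lowest at 1.25, as a mean over cells. The microglia-like classes of the libraries also came from different clusters: the cluster led by Cst7 and Lpl held 8 and 2322 cells, that led by Il1b and Cd14 9 and 547, and that led by Il1a and Nfkbid 671 and 121.

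In endothelial cell-like cells 2 of 5 members were higher (Ttr and Thrsp) and 0 lower, against 24.4% and 11.5% of genes, and Thrsp went from 1.63 to 1.44 with median-of-ratios scaling. In pericyte-like cells 2 of 5 were higher (Ttr and Slco1c1) and 0 lower, against 27.5% and 14.9%. In vascular smooth muscle-like cells 3 of 5 were higher (Ttr, Slco1c1 on 21 and 3 UMIs, and Thrsp on 34 and 4 UMIs) and 0 lower, against 21.2% and 15%. The Slco1c1 interval there held 1 (0.870 to 15.3), and the Thrsp ratio of 3.54 was 1.02 with classes from marker scores. In choroid plexus epithelium-like cells 1 of 6 was higher (Ttr) and 2 were lower (Thrb and Thrsp, the latter at 10.8 and 18.9 CPM), against 11.7% and 31.7%. The Thrb ratio was 0.632 with an interval that held 1 (0.268 to 1.81). With median-of-ratios scaling 0 members were lower in this class and 17.4% of genes were, and without Ttr and the other abundant genes in the total 0 members and 17.0% of genes were. The Ttr ratio of 1.55 was 1.48 at no more than 10% mitochondrial UMIs. In neuron-like cells 3 of 6 were higher (Ttr, Slco1c1 and Thrsp) and 1 lower (Crym), against 36.3% and 25.5%. Slco1c1 there rested on 19 and 7 UMIs, with a ratio of 1.74 (0.702 to 4.91) that kept 1.5-fold in 6 of 11 alternatives and was 1.14 after thinning. The neuron-like Ttr ratio of 5.54 was 2.46 with classes from marker scores. In border macrophage-like cells both counted members, Ttr and Slco1c1, were higher, against 19.4% and 19.9%. Slco1c1 had 24 and 1 UMIs in that class, and its ratio of 12.4 was 1.34 with doublets kept. The Ttr ratio of 15.3 was 5.63 with classes from marker scores.

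The members' median log2 ratio was 0.04 in astrocyte-like cells beside −0.16 for all genes, 0.49 beside 0.02 in oligodendrocyte-like cells and 0.67 beside 0.35 in microglia-like cells. It was −0.32 beside −0.36 in choroid plexus epithelium-like cells and 0.64 beside 0.21 in neuron-like cells, medians that include Ttr. The all-gene median was also 0.16 in endothelial cell-like cells. With median-of-ratios scaling, which sets that median near 0, the share of higher among called genes changed from 28.7% to 43.8% in astrocyte-like, 69.2% to 44.4% in microglia-like, 68.0% to 51.9% in endothelial cell-like, 26.98% to 53.3% in choroid plexus epithelium-like and 58.7% to 46.9% in neuron-like cells. The Thrsp ratio in astrocyte-like cells was 2.19 under it and the Dio2 ratio 0.835. Directions that turned under it were those of Slco1c1 in choroid plexus epithelium-like cells (1.08) and in endothelial cell-like cells (0.998), Klf9 in choroid plexus epithelium-like cells (1.17), Thra in neuron-like cells (0.918) and Thrsp in microglia-like cells (0.832).

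**Figure D4:**
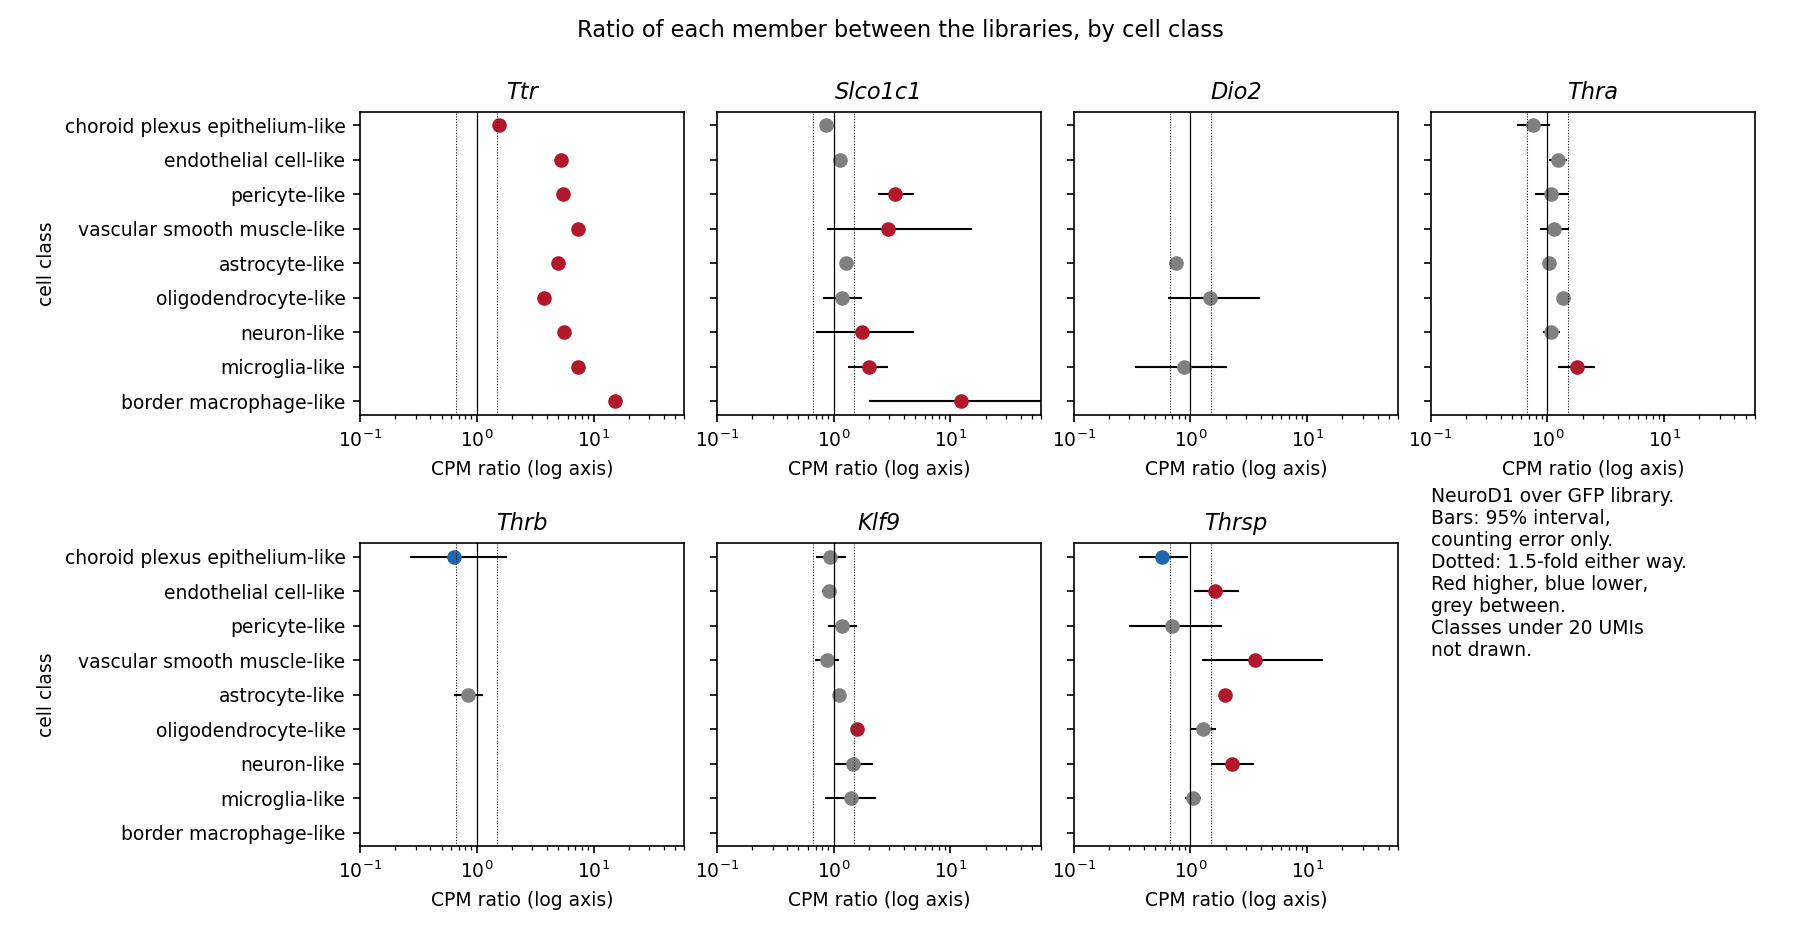
Ratio of CPM, NeuroD1 over GFP library (log axis), of 7 members in the 9 compared classes (rows), with bars for the 95% interval of counting error and dotted lines at 1.5-fold either way; red points are higher, blue lower and grey between, and classes under 20 UMIs are not drawn. Ttr is right of the dotted line in all 9 classes and farthest in border macrophage-like cells at 15.3, whereas Thra and Klf9 are past it in 1 class each.

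A list of 37 other genes of the pathway was read in the same way. In astrocyte-like cells 0 of 27 counted genes were higher and 12 lower, beside 10.1% and 25% of all genes, with a median log2 ratio of −0.40 beside −0.16. Of 6 coactivator genes 5 were lower, among them Ncoa1 at 63.9 and 120 CPM (ratio 0.534, 0.470 to 0.609), Crebbp at 28.0 and 67.1 CPM (0.417, 0.348 to 0.501) and Ep300 at 14.5 and 35.9 CPM (0.402, 0.313 to 0.519). The transporters had 2 of 5 lower (Slc7a5, 0.473, and Slc7a8, 0.427). Dbp, a clock output gene that was listed as hormone-responsive, was at 93.8 and 179 CPM (0.525, 0.472 to 0.584). Mag, a myelin gene, was also lower (0.477).

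In oligodendrocyte-like cells 2 of 26 listed genes were higher and 6 lower, beside 12.5% and 15.2% of all genes. Mbp, a myelin gene induced by T3 during development, was at 10954 and 6863 CPM (1.60, 1.57 to 1.62), and Homer1 at 11.0 and 7.26 CPM. Ncoa1, Crebbp, Ep300, Rxra, Nrgn and Dbp were lower, so 3 of 6 coactivator genes were lower in this class too. In microglia-like cells 17 of 30 listed genes were higher and 2 lower, with a median log2 ratio of 0.67. Of all genes in this class 36.6% were higher and 16.3% lower with a median of 0.35. Median-of-ratios scaling made these all-gene shares 19.6% and 24.5%. The list counts given here are without that scaling and are not comparable with those 2 shares. The transporters gave 4 of 7 higher, with Slc7a8 at 155 and 64.2 CPM (2.42, 2.09 to 2.80) and Slco4a1 at 29.4 and 7.64 CPM (3.84, 2.60 to 5.75). Of 6 coactivator genes 5 were higher there, the direction opposite to astrocyte-like cells. Both counts are from CPM, where the all-gene median log2 ratio was 0.35 in microglia-like and −0.16 in astrocyte-like cells. A test of this difference was not possible with 1 library per group.

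The other transporters had their own cell classes. Slco1a4, an organic anion transporter of brain endothelium, was at 2032 and 1776 CPM in endothelial cell-like cells. Slc16a10 was at 37.7 and 40.6 CPM in microglia-like and 77.4 and 111 CPM in border macrophage-like cells. Slc7a5, which with Slc3a2 forms a large amino acid transporter that also carries thyroid hormone, was at 853 and 544 CPM in endothelial cell-like cells (1.57, 1.44 to 1.70). Of 26 listed genes counted in endothelial cell-like cells, 5 were higher and 2 lower, beside 24.4% and 11.5% of all genes. The hormone-inactivating deiodinase Dio3 had 7 UMIs, all in neuron-like cells of the GFP library, and Dio1 had 0.

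In pericyte-like cells 6 of 22 listed genes were higher and 3 lower, shares near the 27.5% and 14.9% of all genes. All 4 counted transporters were higher, Slco1a4 at 801 and 348 CPM, in the class whose Rgs5 cluster held endothelial markers. In neuron-like cells 4 of 23 were higher and 11 lower, beside 36.3% and 25.5% of all genes. Of 8 counted hormone-responsive genes 7 were lower and 1 higher, with Nrgn at 190 and 848 CPM, Camk4 at 8.72 and 115 CPM and Homer1 at 10.9 and 84.8 CPM, and the Thy1 cluster held 7 and 125 of the neuron-like cells. In choroid plexus epithelium-like cells 1 of 28 was higher and 9 lower, beside 11.7% and 31.7% of all genes. In vascular smooth muscle-like cells 3 of 17 were higher and 2 lower, beside 21.2% and 15%, and in border macrophage-like cells 4 of 11 and 0, beside 19.4% and 19.9%. Dbp in vascular smooth muscle-like cells was at 166 and 17.5 CPM.

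The genes whose pattern was most like each member were found over 22 sums, 1 for each of 11 classes in each library, among 9433 genes, by Pearson's r of log2 values, which shares libraries and depth between points and is given as a description. Dio2 was most like Gabrg1 (0.974), F3 and Baalc (0.921), and Thrsp most like Kcne1l (0.877), Fabp7 and Pou3f4 (0.871 each). Slco1c1 was most like Ghr (0.888), Gsta4 (0.871) and Gulp1 (0.870). For the receptors, Thra was most like Tspyl4 (0.920) and Gna11 (0.901), and Thrb most like Pygo1 (0.951), Wnk2 (0.919) and Igfbp5 (0.906). Ttr was most like Frmpd1os (0.947), Steap1 (0.946) and Kcne2, Klf9 most like Cystm1 (0.894), Fermt2 (0.881) and Selenom (0.867), and Hr most like Fgf1 (0.836), Insc (0.828) and Csrp1 (0.826). Crym was most like Camk2b (0.871), Adgrb3 and Gprasp1 (0.810), on 106 UMIs.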

How the data were processed

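RNA was measured in single cells of 2 hippocampus libraries, 1 per group. The authors deposited UMI counts per gene and barcode, made with FastQC, fastp, cutadapt, STAR and featureCounts on build mm39 per the submitters' processing notes. Its gene annotation release was not given in the sources used here. Per the labels, the platform is named differently in the description and in the protocol, which describes a microwell chip, and this is not settled.

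The cell filter asked for at least 200 genes and no more than 20% mitochondrial UMIs (131 and 104 barcodes removed), and Scrublet in scanpy 1.11.5 marked 485 (3.65%) and 556 (4.78%) cells as doublets, which were removed. Counts scaled to 10000 per cell were log-transformed and clustered on 3000 variable genes, without the members, with 30 components, 15 neighbours and Leiden (leidenalg 0.10.2) at resolution 1. Clusters were named from marker lists where at least 3 markers of a class were among the 100 leading genes. A cluster was left unnamed if another class had as many or more markers among the 10 leading genes. It was also left unnamed if its depth was low and none of these 10 was a marker of the class. Scripts ran in Python 3.11.15 with pandas 2.3.3, scikit-learn 1.9.0, scipy 1.17.1, matplotlib 3.10.9 and numpy 2.4.6.

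UMIs were summed per library and class. CPM have exact Poisson intervals, ratios exact conditional binomial intervals and shares Clopper-Pearson intervals, all at 95%. A log2 ratio adds 0.5 UMI to each sum. The ratio and its interval were tested on simulated data. Genes named are the members, the pathway list, the choroid plexus markers, the 3 genes most like each member (at least 500 UMIs) and genes that describe a library. Some genes this rule allows are not reported here. Cluster names are their leading genes, chosen after their values were seen. The members and lists were chosen with earlier results of these data known. Alternatives changed the cell filter, doublets, resolution, class naming, scaling, thinning to 500 UMIs, weight of cells, choroid plexus RNA and the UMI minimum. Those that leave out a cluster were added after seeing the data. The promoter table is of another build than the counts, and no other coordinates were used.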

Additional observations from a re-analysis of the deposited data

How the results depend on the processing

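No paired analysis was possible because each group is 1 library. Of 21 member and class pairs called higher, every alternative gave between 15 and 24. The 4 pairs called lower became 7 with classes from marker scores, 2 without Ttr, haemoglobin, mitochondrial and ribosomal protein genes in the total, 0 after thinning, 2 with at least 50 UMIs and 11 with at least 5 UMIs. The 47 pathway pairs called lower became 30 with at least 50 UMIs. Ttr outside choroid plexus, at 5.09, was 5.93 with doublets kept and 5.56 after thinning. Reversed values were Thrb in choroid plexus epithelium-like cells (0.632), which was 1.68 at 10% mitochondrial UMIs, and Thrsp in that class (0.570), which was 1.16 at resolution 2 and 1.02 with marker scores. Their cause was not tested. Over 51 member ratios and 562 alternative values, 479 stayed within the interval of the reported ratio, 80 moved beyond it and 3 reversed a called ratio. Of counts per class, 203 of 234 stayed within 1.5 times. Ratios of Ttr outside choroid plexus, Thrsp in astrocyte-like and neuron-like, Slco1c1 in pericyte-like and Crym in astrocyte-like and neuron-like cells kept 1.5-fold under all 11 alternatives. For Crym this sets aside the minimum of 20 UMIs, under which neither pair was called after thinning. In the neuron-like cluster that held all Crym UMIs of its class, Crym was at 96.3 and 176 CPM. Leaving out the pericyte-like cluster led by Rgs5 gave 1.41 for Slco1c1, and leaving out the neuron-like cluster led by Thy1 gave 1.08 for Thrsp and 3.86 for Klf9. Intervals hold no difference between mice, and Hr, Thrb and Crym rest on 260, 403 and 106 UMIs in all.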

Other observations

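Cluster 12 was left unnamed and lay almost wholly in the GFP library, with 594 cells against 5 in the NeuroD1 library. It was led by Rab3c and Kif5a, which are neuronal genes, while the 14 microglia markers summed to 29387 CPM and 13 neuron markers to 822 CPM in it. Its members were at 6015 CPM for Ttr, the highest of any cluster of the GFP library with at least 50 cells outside choroid plexus, 182 CPM for Thrsp, 76.4 CPM for Thra, 34.6 CPM for Dio2 and 23.7 CPM for Klf9. The Dio2 level was above that of every named class of the GFP library with at least 50 cells, astrocyte-like cells apart, on 19 UMIs.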
